A study of Homo sapiens with 12 samples.

Results

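The 82 genes described here encode the proteins of the cytosolic ribosome. They were taken from 19884 protein-coding genes on the numbered chromosomes, X and Y of the RefSeq annotation of hg38 by their symbols. These are RPL or RPS and a number, alone or followed by A, X, L or AL, with RPLP0, RPLP1, RPLP2 and RPSA added. By that rule the set held 43 large-subunit genes, 31 small-subunit genes, 3 genes of the P stalk and 5 paralogues whose symbols end in L. FAU, which encodes a ribosomal protein as a fusion, was outside the rule. A gene was called linked to a list of binding regions when the summit of a region lay in the gene or within 2 kb of it.

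Binding was mapped by ChIP-seq, in which DNA bound by a protein is pulled down with an antibody and sequenced. The cells were SUPT-1, a long-established line grown from a human T-cell acute lymphoblastic leukaemia (T-ALL). The cells carried doxycycline-inducible STAT5B, either wild type (the WT line) or the mutant N642H (the N642H line), and the groups of both lines were induced. They were left untreated or were given the glucocorticoid prednisolone at 250 µg per ml for 16 hours. Antibodies against STAT5B and against NR3C1, the glucocorticoid receptor, gave 8 ChIP samples, with 1 library per group, and 4 further samples were input DNA and had no list. No library without induced STAT5B was among the 12 samples, so neither the effect of induction nor the share of the cell's own STAT5B in the signal can be told from these lists. With 1 library per group no difference between lists has a replicate check, and no test between groups was made.

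STAT5B is a transcription factor that cytokine receptors activate through JAK kinases, after which dimers bind a palindromic DNA element. N642H is an activating mutation in its SH2 domain. NR3C1 enters the nucleus when it binds a glucocorticoid and then binds glucocorticoid response elements, most of them far from promoters. Ribosomal protein genes are short housekeeping genes with high transcription in nearly all cells. Their promoters are known for a start site within a run of pyrimidines, which gives their mRNAs a 5′ terminal oligopyrimidine tract through which mTOR controls translation, and for sites of ETS factors and YY1.

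The lists differed greatly in length. NR3C1 had 2 regions in each untreated line, and 995 (WT) and 2888 (N642H) with prednisolone. STAT5B had 2267 (WT) and 4542 (N642H) regions untreated, and 766 (WT) and 446 (N642H) with prednisolone. Fold (ChIP pileup over local background) and −log10 q are the authors' values for each region, and values of different lists are set side by side without being read as a change. The number of DNA fragments over each summit was recovered from these values. The weakest region of each of the 6 long lists had 6 to 9 fragments, so a site with fewer fragments than that was not detectable as a region. Regions at ribosomal protein genes had 9 to 33 fragments, and their intervals below are exact Poisson 95% intervals that cover counting error only.

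Ribosomal protein genes were linked mostly to STAT5B without prednisolone. In the untreated N642H line 44 of the 82 genes (53.7%) had a STAT5B region, against 19.3% of all protein-coding genes. In the untreated WT line 20 genes (24.4%) had one, against 9.96% of all genes. With prednisolone 10 genes (12.2%) were linked in the WT line, against 3.67% of all genes, and 4 genes (4.88%) in the N642H line, against 1.71%. The share of linked ribosomal protein genes was thus above the share of all genes in each of the 4 STAT5B lists. For NR3C1 with prednisolone 6 genes (7.32%) were linked in the N642H line and 1 gene (1.22%) in the WT line, against 7.14% and 2.63% of all genes, so neither count stood above the background when whole genes were counted. Within 1 kb of a start (or of either end of a gene with no listed start) these genes were 7.32% against 2.10% of all genes in N642H, and 1.22% against 0.473% in WT. Neither untreated NR3C1 list had a region at any of the 82 genes, and its 2 regions lay at 0.0101% of all genes in each line.

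**Figure D1:**
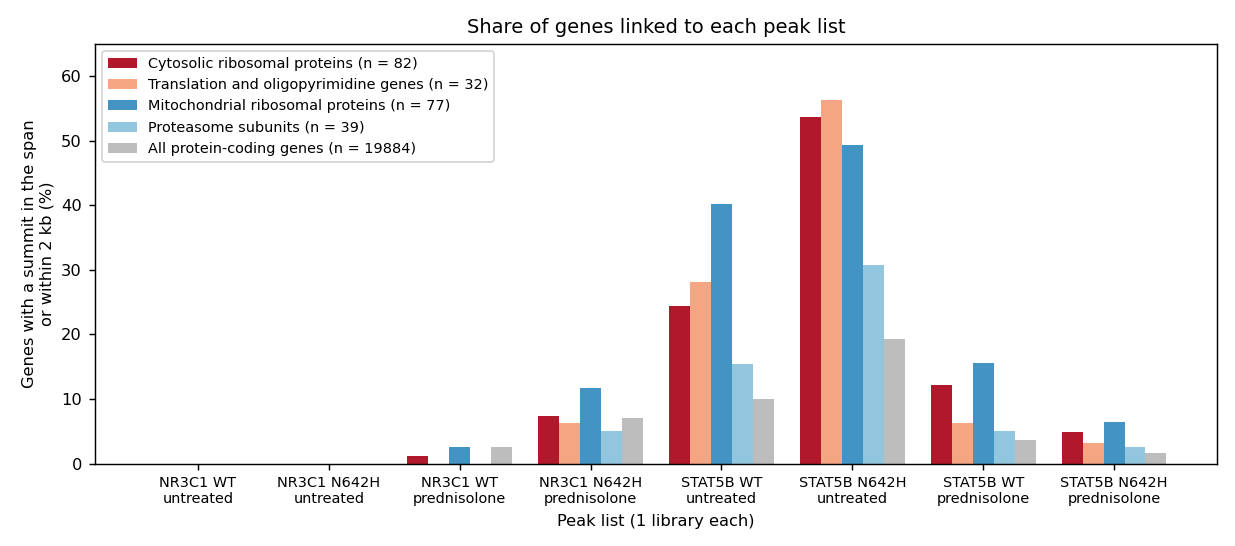
The bars show the percentage of genes with a summit in the gene or within 2 kb of it (vertical axis) in each of the 8 peak lists (horizontal axis, 1 library each), for 5 sets of genes. Cytosolic ribosomal protein genes reached 53.7% in the untreated N642H STAT5B list and 24.4% in the untreated WT list, against 19.3% and 9.96% of all protein-coding genes.

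In the untreated lists the excess was small among the 446 strongest regions. When each of the 6 long lists was reduced to its 446 strongest regions by −log10 q, 2 ribosomal protein genes (2.44%) remained linked in either untreated STAT5B list, close to the 2.08% (WT) and 1.83% (N642H) of all genes. The prednisolone lists of STAT5B then had 6 genes (7.32%) in the WT line and 4 (4.88%) in the N642H line, against 2.14% and 1.71% of all genes. NR3C1 had none in either line, against 1.21% (WT) and 1.24% (N642H) of all genes. With the 766 strongest regions of the untreated WT STAT5B list, 8 genes (9.76%) were linked, against 3.59% of all genes. With the 2267 strongest of the untreated N642H STAT5B list, 24 (29.3%) were, against 10.2%. Of the 47 regions at ribosomal protein genes in the untreated N642H list, 2 were among the top 10% of that list and 26 in its upper 50%. Among the 23 regions of the untreated WT list these numbers were 1 and 13. The genes are short, with a median span of 5013 bp against 24443 bp for all protein-coding genes. Among the 10596 protein-coding genes no longer than the longest of the 82 (27723 bp), 16.4% were linked to untreated N642H STAT5B and 2.94% to NR3C1 in the N642H line with prednisolone.

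RPS7 was the gene linked in the most lists, and it had a region in each of the 6 long ones. RPS7 (gene ID 6201, chromosome 2, 3575260 to 3580920) encodes a small-subunit protein that is mutated in some cases of Diamond-Blackfan anaemia. In the untreated WT line its STAT5B region had 33 fragments (22.7 to 46.3), a fold of 15.7 and rank 5 of 2267. The untreated N642H region had 32 fragments (21.9 to 45.2), a fold of 12.8 and rank 95 of 4542. The libraries differed in depth, with a genome-wide background of 0.640 (WT) and 0.977 (N642H) fragments, so these counts were not compared. With prednisolone the STAT5B regions had 22 fragments (13.8 to 33.3) in WT, at rank 68 of 766, and 17 fragments (9.90 to 27.2) in N642H, at rank 93 of 446. The NR3C1 regions had 16 fragments (9.15 to 26.0, fold 7.72) in WT and 25 fragments (16.2 to 36.9, fold 9.26) in N642H. Against their own lists the NR3C1 regions were of middling strength, at rank 605 of 995 and 964 of 2888. The 6 summits lay between 53 and 127 bases upstream of the listed start, within a stretch of 75 bases.

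The promoter windows of RPS7, RPL18 and RPL38 are shown because the summits of every list with a region there lay inside them. Each is the RefSeq (GRCh38.p14) sequence from 250 bases before to 50 bases after the listed start, 5′ to 3′ on the gene's strand, with the start at the first base after those 250, and the capitals mark the stretch from the first summit to the last. The windows are chr2:3575010-3575309 (plus strand) for RPS7, chr19:48619129-48619428 (minus strand) for RPL18 and chr17:74203428-74203727 (plus strand) for RPL38.
RPS7: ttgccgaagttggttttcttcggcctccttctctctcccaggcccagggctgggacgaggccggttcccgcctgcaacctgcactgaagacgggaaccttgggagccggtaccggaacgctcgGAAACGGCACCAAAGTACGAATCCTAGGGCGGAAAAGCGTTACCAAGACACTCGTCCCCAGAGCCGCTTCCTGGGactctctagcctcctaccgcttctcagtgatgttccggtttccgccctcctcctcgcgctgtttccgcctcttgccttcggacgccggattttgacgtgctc
RPL18: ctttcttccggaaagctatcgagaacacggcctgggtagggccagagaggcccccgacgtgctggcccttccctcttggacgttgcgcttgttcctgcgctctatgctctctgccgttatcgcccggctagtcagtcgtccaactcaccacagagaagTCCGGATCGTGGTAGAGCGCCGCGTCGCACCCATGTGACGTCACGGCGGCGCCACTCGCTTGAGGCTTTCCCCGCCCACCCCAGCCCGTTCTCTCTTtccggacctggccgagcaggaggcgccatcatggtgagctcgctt
RPL38: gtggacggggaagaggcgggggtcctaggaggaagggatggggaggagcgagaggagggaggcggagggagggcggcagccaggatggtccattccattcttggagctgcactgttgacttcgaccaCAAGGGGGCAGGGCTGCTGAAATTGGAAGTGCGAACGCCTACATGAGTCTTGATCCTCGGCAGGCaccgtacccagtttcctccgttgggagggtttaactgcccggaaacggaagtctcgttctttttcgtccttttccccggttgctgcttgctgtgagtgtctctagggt
In RPS7 the capitals run from position 124 to 198 and come from 6 lists. In RPL18 they run from 159 to 255 over 3 STAT5B lists, and in RPL38 from 128 to 192 over 2 STAT5B lists. SPHK2, a sphingosine kinase gene, also lay within 2 kb of the RPL18 summits.

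RPL37 and RPS26 had links to 5 and 4 lists. RPL37 (gene ID 6167, chromosome 5, 40825262 to 40835222), a large-subunit gene, had STAT5B regions of 14 fragments (7.65 to 23.5) in WT and 22 (13.8 to 33.3) in N642H untreated, and of 13 (6.92 to 22.2) and 11 (5.49 to 19.7) with prednisolone. Its NR3C1 region in the N642H line had 12 fragments (6.2 to 21.0), and there was none in the WT line. The folds over local background were 7.70 and 9.09 untreated, 5.75 and 8.37 with prednisolone, and 6.78 for NR3C1. RPS26 (gene ID 6231, chromosome 12, 56041918 to 56044697) had 26 fragments (17.0 to 38.1) in untreated N642H cells, and 2 separate WT regions of 13 (6.92 to 22.2) and 12 fragments (6.2 to 21.0) on either side of its start. With prednisolone it had 17 fragments (9.90 to 27.2) for STAT5B in WT and 13 (6.92 to 22.2) for NR3C1 in N642H.

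**Figure D2:**
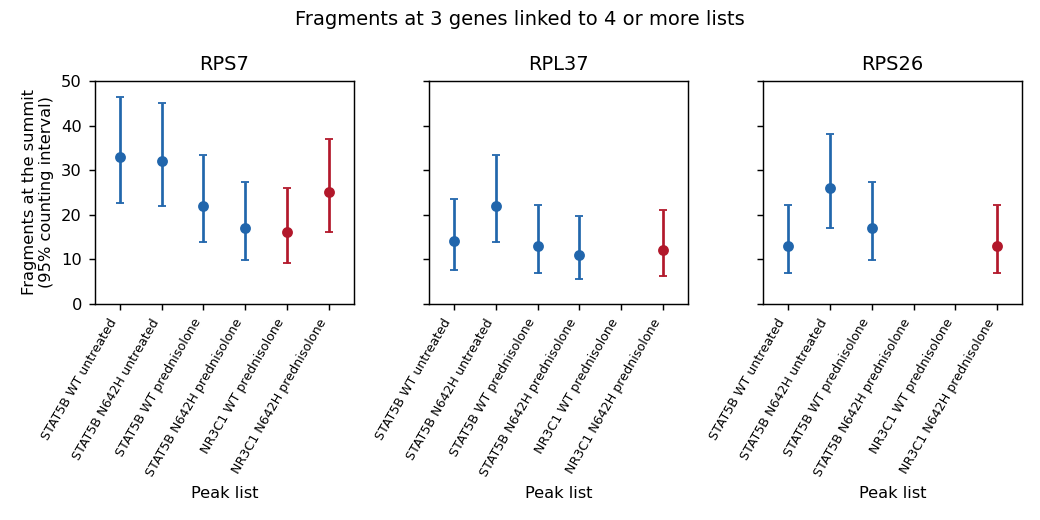
Points give the fragments at the summit of the strongest region (vertical axis, with exact Poisson 95% counting intervals) of RPS7, RPL37 and RPS26 in the 6 long peak lists (horizontal axis, blue STAT5B, red NR3C1), and lists without a region are left blank. RPS7 had the highest counts, 33 and 32 fragments in untreated WT and N642H cells.

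The comparison of untreated STAT5B between the lines asked whether the mutant occupied other genes than the wild-type form. Of the 20 ribosomal protein genes linked in WT, 19 (95%) were also linked in N642H, and they made up 43.2% of the 44 N642H genes. Over all protein-coding genes 7.32% were linked in both lists, which was 73.4% of the WT genes and 38.0% of the N642H genes. The 25 genes linked in N642H and not in WT included RPL19, RPL22, RPL13A, RPL27, RPS18 and RPS3, and RPL36A was linked in WT alone. The RPL36A region had 9 fragments at rank 1502 of 2267, and BTK also lay within 2 kb of its summit. At the 19 shared genes the regions of both lists overlapped, a share not counted over all genes, and the summits lay a median of 53 bp apart. The WT fold was the higher at 12 of them and the N642H fold at 7. The N642H list was the longer one, so a gene absent from the WT list may have had a site below its threshold. With the N642H list reduced to the WT length of 2267 regions, 24 genes (29.3%) were linked in N642H and 20 (24.4%) in WT, against 10.2% and 9.96% of all genes. At that length 12 of the 20 WT genes (60%) were also linked in N642H, against 50.5% of the WT genes among all genes. They were 50% of the 24 N642H genes, level with 49.6% over all genes.

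Large-subunit genes made up 23 of the 44 genes linked in untreated N642H cells. The 7 with the highest −log10 q were RPL18 (31 fragments, fold 6.85), RPL19 (23 fragments, fold 8.83), RPL37, RPL22 (23 fragments, fold 7.99), RPL38 (22 fragments, fold 8.11), RPL13A (19 fragments, fold 8.74) and RPL27 (28 fragments, fold 6.21). RPL13A is known for a second role in translational silencing in the interferon response. RPL5, RPL10, RPL11 and RPL22 are the ribosomal protein genes known to be mutated or deleted in T-cell leukaemia, and they are named here for that reason after their values were seen. Each had a region in untreated N642H cells, as did 53.7% of the 82 genes, so these links are not read as particular to them. Their folds were 6.60 for RPL5, 5.56 for RPL10, 4.53 for RPL11 and 7.99 for RPL22. The RPL10 and RPL11 regions were weak, at rank 3694 and 3627 of 4542, and the RPL5 summits also lay within 2 kb of DIPK1A. Of these 4, RPL11 also had one in untreated WT cells (13 fragments, fold 6.68). In the WT list the strongest large-subunit genes were RPL4 (20 fragments, fold 7.25), RPL37, RPL18 (17 fragments, fold 6.21), RPL11 and RPL28 (11 fragments, fold 6.94). RPL4 and RPL28 had N642H regions as well, with folds of 5.86 (25 fragments) and 4.59 (12 fragments).

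Small-subunit genes made up 18 of the 44. RPS14, the gene whose loss marks the 5q deletion syndrome of the marrow, followed RPS7 with 26 fragments and a fold of 9.53, and RPS18 had 21 fragments and a fold of 7.76. In the WT list RPS27A (15 fragments, fold 7.38), which encodes ubiquitin fused to a ribosomal protein, RPS15 (13 fragments, fold 7.19) and RPS19 (13 fragments, fold 7.18) were among the 10 strongest genes. RPS19 is the gene most often mutated in Diamond-Blackfan anaemia. These 3 were linked in the N642H list too, with folds of 6.43, 7.43 and 6.29. Of the P stalk, which recruits elongation factors, RPLP0 and RPLP2 were linked in untreated N642H cells and RPLP1 in no list. Of the 5 paralogues RPL36AL was linked, in untreated N642H cells, and RPL3L, RPL10L, RPL39L and RPS27L were not.

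**Figure D3:**
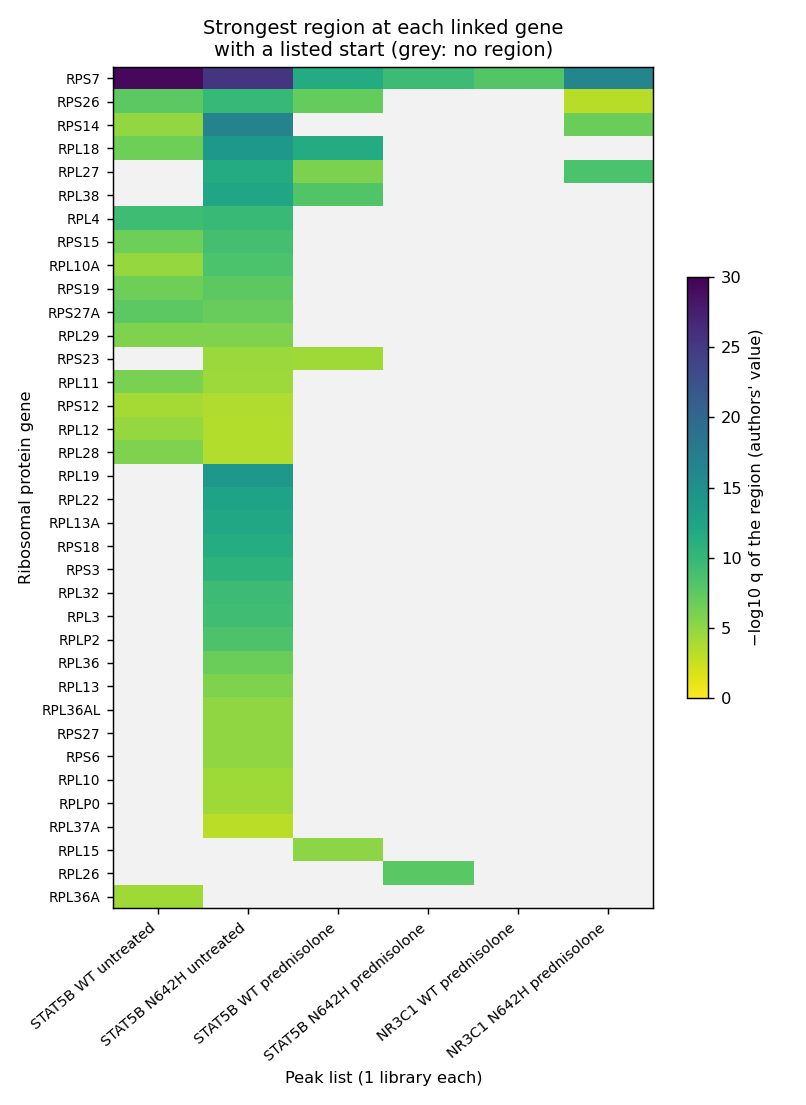
Each row is 1 of the 36 ribosomal protein genes with a listed start that were linked to any list (47 with the others), each column 1 peak list, and the colour the −log10 q of the strongest region (scale 0 to 30, grey for no region). RPS7 fills all 6 columns, and most genes appear in the untreated N642H STAT5B column, where 33 of the genes drawn are linked.

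In the remaining 35 genes no list had a summit in the gene or within 2 kb. They were RPL6, RPL7, RPL7A, RPL8, RPL9, RPL14, RPL17, RPL21, RPL24, RPL27A, RPL30, RPL31, RPL34, RPL35, RPL35A, RPL39, RPL41, RPL3L, RPL10L, RPL39L, RPLP1, RPS3A, RPS4X, RPS9, RPS10, RPS13, RPS15A, RPS16, RPS21, RPS24, RPS25, RPS27L, RPS28, RPS29 and RPSA. The unlinked genes thus came from both subunits, with 17 of the 43 large-subunit and 13 of the 31 small-subunit genes. The share of all protein-coding genes without a link to any list is not given here. The 35 are therefore not read as many or few.

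With prednisolone fewer ribosomal protein genes had a STAT5B region, as did fewer genes of any kind. In the WT line 5 genes were linked both without and with prednisolone, among them RPL18, RPL37, RPS7 and RPS26, which was 25% of the 20 untreated and 50% of the 10 prednisolone genes. Over all protein-coding genes 2.53% were in both lists, or 25.4% and 69.1% of each. RPL15 (19 fragments, fold 5.71), RPL27 (15 fragments, fold 7.39), RPL38 (15 fragments, fold 8.99), RPL5 (13 fragments, fold 7.71) and RPS23 (14 fragments, fold 6.40) were linked in WT with prednisolone and not without it. In the N642H line 3 genes were in both lists, RPL37 and RPS7 among them, which was 6.82% of the 44 untreated and 75% of the 4 prednisolone genes, against 1.55% of all genes, or 8.04% and 90.6% of each list. RPL26 (11 fragments, fold 8.34) was linked to the N642H prednisolone list and had no region in any other list. RPL26 protein is known to bind p53 mRNA. With prednisolone the lines shared 3 genes, RPL37 and RPS7 among them, which was 30% of the 10 WT and 75% of the 4 N642H genes. Over all protein-coding genes 1.01% were linked in both, or 27.4% and 58.8% of each list. With 446 regions in both lists 1 gene was shared, or 16.7% and 25%, against 33.8% and 42.4% over all genes.

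List length went along with these counts. When both lists of the WT line held 766 regions, 8 ribosomal protein genes (9.76%) were linked without and 10 (12.2%) with prednisolone, against 3.59% and 3.67% of all genes. When both lists of the N642H line held 446 regions, 2 (2.44%) were linked without and 4 (4.88%) with prednisolone, against 1.83% and 1.71% of all genes. The counts with prednisolone were thus lower over the whole lists and not at equal list length.

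For RPL5, RPL27, RPL38 and RPS23 the lines went opposite ways. These 4 genes had a STAT5B region in WT cells with prednisolone alone and in N642H cells without it alone, a pattern of 0.679% of all genes. The N642H list with prednisolone held 446 regions, and 41 of the 44 untreated N642H genes had none there. The RPS23 regions were weak, at rank 607 of 766 (WT) and 3572 of 4542 (N642H). A missing region may be a site below the threshold, and the difference between the lines was not tested.

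NR3C1 regions at ribosomal protein genes were few and overlapped STAT5B regions. In the N642H line with prednisolone the 6 genes included RPS7, RPL27 (14 fragments, fold 7.54), RPS14 (13 fragments, fold 6.62), RPL37 (12 fragments, fold 6.78) and RPS26 (13 fragments, fold 4.30). Apart from RPS7, at rank 964, these ranked between 1795 and 2840 of 2888. RPS7 was the single gene linked in the WT line and was linked in both lines, where 2.41% of all genes were. Each of the 6 was also linked to untreated N642H STAT5B, a pair of lists chosen after the values were seen. Over all genes 3.85% were in both of these lists, or 53.9% of the NR3C1 genes. In the WT line the same pair of lists had RPS7 in both, against 0.91% of all genes. The regions of both antibodies overlapped at each of the 6, with summits 16 to 159 bp apart. Regions linked to the same short gene lie close together by the linking rule. The share of overlapping regions over all genes was not counted, so the overlap is not read as particular to these genes. With prednisolone 3 genes, RPL37 and RPS7 among them, had regions of both antibodies in the N642H line, against 0.81% of all genes, with summits at most 23 bp apart. In the WT line RPS7 alone did, against 0.533% of all genes, with summits 19 bp apart. Lists of 1 line and treatment may have been called against the same input, and its part in this overlap was not tested.

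The local background was checked at these sites. At the summits of ribosomal protein regions it was at most 3.8 times the genome-wide background of the same library, and it was at most 3.67 fragments.

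The regions lay at the starts of the genes. RefSeq starts with strand were listed for 65 of the 82 genes, and distances are given for these. In untreated N642H cells 34 of 35 STAT5B regions lay within 1 kb of a listed start, 15 of them within 100 bp, and the median position was 67 bases upstream. The exception was a second region of RPL4, 6934 bases downstream at the far end of the gene, near SNAPC5. In untreated WT cells 17 of 17 regions lay within 1 kb, 9 of them within 100 bp, with a median of 75 bases upstream. With prednisolone these were 7 of 7 in WT and 2 of 2 in N642H, and for NR3C1 1 of 1 and 4 of 4. Counted by gene, 33 of the 65 (50.8%) had a summit of untreated N642H STAT5B within 1 kb of a start, against 16% of the 15843 protein-coding genes with a listed start. For untreated WT STAT5B it was 15 (23.1%) against 8.25%, and with prednisolone 7 (10.8%) against 3.05% in WT and 2 (3.08%) against 1.41% in N642H. For NR3C1 it was 4 (6.15%) against 2.23% in N642H and 1 (1.54%) against 0.454% in WT. The N642H NR3C1 share, level with all genes when the whole gene was counted, was thus above it at starts. That share rests on 4 genes, and other housekeeping gene sets were not counted at starts.

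**Figure D4:**
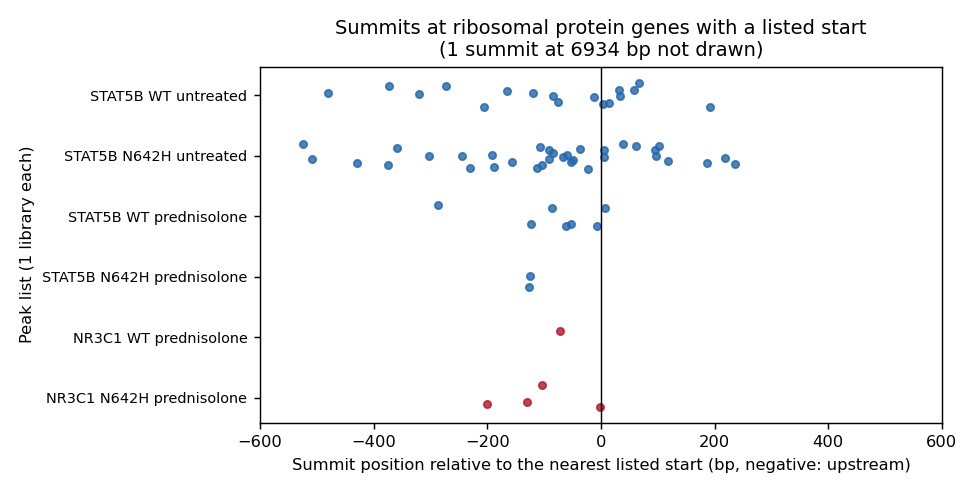
Each point is a summit at a ribosomal protein gene, placed by its distance in bp from the nearest listed start (horizontal axis, negative upstream) in 6 peak lists (vertical axis, vertical scatter for legibility). The summits lie within 524 bp of a start apart from 1 at 6934 bp, which is not drawn.

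Other genes lay close to some of these starts. Of the 47 untreated N642H regions, 17 had another protein-coding gene within 2 kb of the summit, as did 8 of the 23 untreated WT regions. Examples are SPHK2 at RPL18, ZWILCH at RPL4, FLT3LG at RPL13A, VPS52 at RPS18, FANCE at RPL10A and TMEM238 at RPL28. Others are DIPK1A at RPL5, MGAT2 at RPL36AL and, in WT with prednisolone, NKIRAS1 at RPL15. At these sites the link to the ribosomal protein gene and to its neighbour cannot be told apart. RPS7, RPS14, RPS26, RPL27, RPL37 and RPL38 had no such neighbour.

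The promoters were searched for letters bound by STAT5, NR3C1 and factors known at ribosomal protein genes, on both strands in the window of 300 bases. A STAT palindrome, TTCNNNGAA, was in the windows of 2 of the 65 genes (3.08%), RPL4 and RPL28, against 8.98% of all 15843 genes. Both were linked to STAT5B in both untreated lists. The glucocorticoid response element, read as GNACA and TGTNC with 3 bases between them, was in none, against 0.379% of all genes. The ETS letters CCGGAAG were in 23 genes (35.4%) against 16.5%, and the YY1 core ATGGCG in 26 (40%) against 17.0%. The E-box CACGTG was in 4 (6.15%) against 10.9%, and the GC box GGGCGG in 39 (60%) against 64.3%. The largest difference was at the start itself, where CTTTNC on the gene's strand began within 10 bases of the start in 29 genes (44.6%) against 4.72% of all genes. Each set of letters was counted on its own, and matches of different sets may overlap.

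The windows of RPL4, RPL28 and RPS14 are shown for these letters, drawn as above, with the matches to TTCNNNGAA, CCGGAAG and the start letters CTTTNC in capitals. They are chr15:66504806-66505105 (minus strand) for RPL4, chr19:55385682-55385981 (plus strand) for RPL28 and chr5:150449690-150449989 (minus strand) for RPS14.
RPL4: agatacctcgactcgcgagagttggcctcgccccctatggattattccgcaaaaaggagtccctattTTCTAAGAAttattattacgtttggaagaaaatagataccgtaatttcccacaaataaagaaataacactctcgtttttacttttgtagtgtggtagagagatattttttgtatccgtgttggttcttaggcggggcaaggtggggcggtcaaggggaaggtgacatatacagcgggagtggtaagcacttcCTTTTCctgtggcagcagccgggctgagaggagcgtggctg
RPL28: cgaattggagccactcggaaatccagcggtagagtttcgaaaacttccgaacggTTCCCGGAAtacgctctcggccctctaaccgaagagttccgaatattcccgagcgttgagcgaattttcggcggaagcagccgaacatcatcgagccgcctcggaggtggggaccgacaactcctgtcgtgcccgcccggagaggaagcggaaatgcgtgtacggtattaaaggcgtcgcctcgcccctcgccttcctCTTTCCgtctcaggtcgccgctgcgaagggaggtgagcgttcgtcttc
RPS14: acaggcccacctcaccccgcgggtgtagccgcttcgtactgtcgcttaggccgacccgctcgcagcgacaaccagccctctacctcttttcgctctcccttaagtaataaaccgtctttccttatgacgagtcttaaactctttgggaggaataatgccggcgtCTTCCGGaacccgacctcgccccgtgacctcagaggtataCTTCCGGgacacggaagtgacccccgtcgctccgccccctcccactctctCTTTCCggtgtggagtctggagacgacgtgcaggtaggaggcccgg
In RPL4 the palindrome begins at position 68 and the STAT5B summits lay at 45 (WT) and 143 (N642H). In RPL28 it begins at 55, while the summits lay beyond the window at 313 (N642H) and 318 (WT). RPS14 has CCGGAAG on the other strand at 165 and 205 and no palindrome, and its WT summit nearest to the start lay at 285. A match is a description of the letters and not of binding.

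The same letters were counted in linked and unlinked ribosomal protein genes, and no difference between them was tested. Of the 33 genes linked to untreated N642H STAT5B with a listed start, 13 (39.4%) had the ETS letters, against 10 of 32 unlinked genes (31.2%). The YY1 core was in 12 (36.4%) and 14 (43.8%), and the start letters in 18 (54.5%) and 11 (34.4%). The GC box was in 18 (54.5%) and 21 (65.6%), the E-box in 3 (9.09%) and 1 (3.12%), and the STAT palindrome in 2 (6.06%) and 0. Among the 3231 protein-coding genes that had a listed start and a link to that list, 25.8% had the ETS letters. The YY1 core was in 24.6% of them and the start letters in 5.97%. The median GC content of the windows was 59.3% in linked and in unlinked genes, and 62.7% over all genes.

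**Figure D5:**
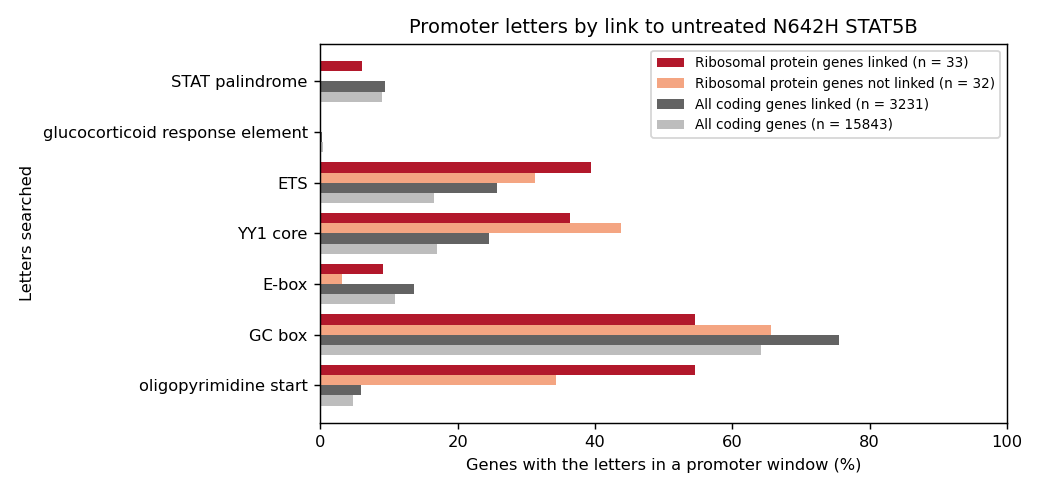
Bars give the percentage of genes whose promoter window holds the letters named on the vertical axis. They are drawn for ribosomal protein genes linked (33) or not linked (32) to untreated N642H STAT5B. Further bars show all coding genes linked (3231) or in all (15843). Every set holds only genes with a listed start. The start letters were in 54.5% and 34.4% of ribosomal protein genes and in 4.72% of all genes.

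Other housekeeping gene sets were counted in the same way, and no difference between sets was tested. Of 77 mitochondrial ribosomal protein genes, 38 (49.4%) were linked in N642H and 31 (40.3%) in WT. Of 32 translation factor and other oligopyrimidine genes, 18 (56.2%) and 9 (28.1%) were. Proteasome subunit genes had 12 of 39 (30.8%) and 6 of 39 (15.4%). Of 5 further cytosolic ribosomal protein genes outside the symbol rule 3 were linked in N642H, among them RPL7L1 and RPL26L1, and 1 in WT. With prednisolone 12 (15.6%) of the mitochondrial ribosomal protein genes were linked in WT and 5 (6.49%) in N642H. The translation genes then had 2 (6.25%) and 1 (3.12%), the proteasome genes 2 (5.13%) and 1 (2.56%), and the further ribosomal protein genes 0 and 0. NR3C1 in the N642H line with prednisolone was linked to 9 mitochondrial ribosomal protein genes (11.7%), above the 7.32% of cytosolic ones. It was linked to 2 translation genes (6.25%), 2 proteasome genes (5.13%) and 0 further ribosomal protein genes. The strongest of these genes in untreated N642H cells were EIF3F (29 fragments, fold 15.2), MRPS31 (28 fragments, fold 10.1), PSMD3 (24 fragments, fold 10.3) and PSMA1 (21 fragments, fold 10.3), and EIF3F had a higher −log10 q (27.5) than RPS7 (25.5). In untreated N642H cells the 53.7% of cytosolic ribosomal protein genes thus lay between the translation genes and the mitochondrial ribosomal proteins, and in WT cells their 24.4% lay below both.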

How the data were processed

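Peak lists of 8 ChIP libraries were analysed, 1 per group, and the 4 input libraries were not analysed here. BWA, MACS2, deepTools and hg38 are named in the submitters' processing notes, with versions not given in the sources used here. The authors deposited for each peak its span, a summit offset, a score that is 10 times the −log10 q, a fold (a ratio of pileup to local background), −log10 p and −log10 q, all taken as deposited. Regions on unplaced, alternative, decoy or mitochondrial sequences were left out. A RefSeq table (GRCh38.p14) gave gene spans, and its promoter sequences gave strand and starts for 65 of 82 genes. The other 17 have no listed start. Some genes are counted but not reported here by name.

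The pileup was solved from the fold (pseudocount 1) and the Poisson −log10 p, in steps of 1 fragment, or of 0.894 (NR3C1) and 0.849 (STAT5B) in the WT line with prednisolone. It was solved for all regions of 5 lists and for 2862 of 2888 NR3C1 regions of the N642H line. On simulated peaks 400 of 400 pileups were recovered at steps of 1 and of 0.85, and 245 of 245 planted gene links. The simulated pileups were solved with the step known. In the WT line with prednisolone the step was fitted to each list and the closest match within a wider tolerance was taken. The simulation does not cover the fragment counts of those lists. Python 3.11.15, pandas 2.3.3 and scipy 1.17.1 were used.

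The members and lists were chosen with earlier results of these data known. Named genes are those linked to NR3C1, to STAT5B with prednisolone or to 4 or more lists, the 10 strongest in each untreated STAT5B list, and the strongest genes of the comparison lists. Alternatives covered the window, the thresholds, list length and the definition of a shared site.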

Additional observations from a re-analysis of the deposited data

Results flagged for a closer look

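For 4 genes, RPL5, RPL27, RPL38 and RPS23, the presence of a STAT5B region without and with prednisolone was opposite in the 2 lines. Each had a region in the WT line with prednisolone and none without it, and in the N642H line a region without prednisolone and none with it. RPL38 had a fold of 8.99 in WT cells with prednisolone and 8.11 in untreated N642H cells. RPL5 had 7.71 and, in the N642H region that overlaps the WT one, 5.93, with a second N642H region of 6.60 that does not overlap it. RPL27 had 7.39 and 6.21, and RPS23 6.40 and 5.15. Over all protein-coding genes 135 (0.679%) had this pattern and 7 the reverse, which no ribosomal protein gene had. The difference between the lines was not tested, since each group had 1 library. The N642H list with prednisolone was the shortest of the long lists, with 446 regions, and the WT regions had 13 to 15 fragments. Of the 44 ribosomal protein genes linked in untreated N642H cells, 41 had no region with prednisolone, as had 3523 of 3831 protein-coding genes. Most linked genes thus shared the N642H side of the pattern. A missing region may be a site below the threshold, so the pattern is not read as a change in binding.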

How the results depend on the processing

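Of 136 alternative values 36 moved, for counts by over 1.5 times. Of the other 100, 14 were counts of 0 for the untreated NR3C1 lists of 2 regions, and 1 left the shortest list as it was. In the 4 STAT5B lists the linked share of ribosomal protein genes was above that of all genes in 28 of 28 alternatives, by little at equal list length in the untreated lists. These alternatives recut the same 4 lists, include the unchanged shortest list and are not independent checks. With summits in the gene span only, linked genes were 11 (untreated STAT5B, WT), 16 (N642H), 3 and 1 (with prednisolone, WT and N642H), and 0 and 1 (NR3C1, WT and N642H), since many summits lie upstream of the start. Genes in both lists were then 7 (untreated STAT5B in both lines), 1 (STAT5B without and with prednisolone in WT) and 0 for the other 5 pairs. With that span 9 translation genes, 14 mitochondrial ribosomal protein genes, 4 proteasome genes and 1998 of all genes were linked in untreated N642H, and 11 mitochondrial ribosomal protein genes and 1016 of all genes in untreated WT. With −log10 q of at least 5, untreated WT STAT5B had 12 linked genes, and genes in both lists were 9 (untreated STAT5B), 1 (STAT5B with prednisolone) and 3 (STAT5B in WT without and with prednisolone). In untreated WT the comparison counts were 0 for the other ribosomal proteins, 4 for translation genes, 19 for mitochondrial ribosomal proteins and 1140 for all genes. With the 446 strongest regions the counts were 2 and 2 (untreated STAT5B), 6 (STAT5B, WT with prednisolone), and 0 and 0 for NR3C1. With pairs at the shorter length, genes in both were 12 (untreated STAT5B), 1 (STAT5B with prednisolone), 1 (STAT5B in N642H) and 0 (NR3C1 and STAT5B in N642H with prednisolone). These settings hold fewer regions or a narrower window by construction. No paired analysis was possible because the labels give no replicate numbers and the counts come from no test. Depth limits the lists to sites of 6 or more fragments.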

Other observations

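Ribosomal protein genes are known hosts of small nucleolar RNAs (snoRNAs), which guide the modification of ribosomal RNA and are cut from introns. Of the 82 genes 29 had a snoRNA gene inside their span. In untreated N642H cells 20 of these 29 (69.0%) were linked to STAT5B, against 24 of the 53 others (45.3%), and in untreated WT cells 8 (27.6%) against 12 (22.6%). The median span was 5011 bp in host genes and 5035 bp in the others. With prednisolone the order was the other way in both lines, with 2 host genes (6.90%) and 8 others (15.1%) linked in WT, and 1 (3.45%) and 3 (5.66%) in N642H. This split was chosen after the values were seen and was not tested.

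Processed pseudogenes carry copies of ribosomal protein exons without the promoter. Of 1966 annotated pseudogenes named after the 82 genes, 14 (0.712%) had an untreated N642H STAT5B summit in their span or within 2 kb, and 5 (0.254%) an untreated WT one. This count was added after the values were seen. The share over all pseudogenes was not counted, so the counts are not read as low or high. NR3C1 with prednisolone had 14 (0.712%) in N642H and 7 (0.356%) in WT. How reads that match several copies were treated is not given in the sources used here, and its part in these counts was not tested.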
